A study of Mus musculus with 8 samples.

Results

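The cadherins and protocadherins described here are the 47 genes, of 12393 measured in all, whose symbols begin with Cdh and a digit or with Pcdh. Each gene was read from the brightest probe set annotated to it alone, and membership follows from the symbol alone. They comprise 17 cadherins, 8 non-clustered protocadherins and 22 genes of the protocadherin beta cluster. The RefSeq gene table of the mouse holds 93 symbols of this form. Of the other 46, which are not analysed here, 14 belong to the alpha cluster, 22 to the gamma cluster, 6 are cadherins and 4 are non-clustered protocadherins. A further 6 probe sets were annotated to several alpha cluster genes at once and were not used.

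The tissue was hippocampus from 8 male SCID mice aged 12 weeks, all of which went through contextual fear conditioning. SCID mice carry a mutation that leaves them without mature B and T lymphocytes, and both groups share it. Mice 1, 4, 5 and 6 were given FTY720 (fingolimod, a sphingosine analogue) by mouth at 1 mg/kg in saline for 3 days, and mice 13, 14, 15 and 16 received oral saline, the vehicle, for 3 days. Hippocampi were collected 17 h after the last dose, which was 1 h after the test of consolidation, and every array holds the RNA of a single mouse. Both groups were conditioned and tested, so the comparison of FTY720 with vehicle addresses the treatment in trained mice and not the training itself.

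Cadherins are calcium-dependent adhesion proteins that bind cadherins on a facing cell. The classical members are coupled through their cytoplasmic tails to beta-catenin, plakoglobin and p120-catenin, and through alpha-catenin to actin, and at synapses they hold the pre- and postsynaptic membranes together. Protocadherins lack the catenin-binding tail. The clustered ones are expressed in different combinations in single neurons and serve in recognition between a neuron and its own or other branches, while several non-clustered ones act in the pruning and plasticity of excitatory synapses.

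All 9 measured oligodendrocyte markers were lower in FTY720, with list means per mouse (each gene centred on its mean over the 8 mice) of -0.32 to -0.08 in FTY720 and -0.057 to 0.37 in vehicle. Thalamus markers averaged 1.10 in vehicle 15 against at most 0.19 in the other mice, and striatum markers averaged 1.20 in vehicle 15 and 0.34 in vehicle 16. Neocortex markers averaged 0.47 in vehicle 16 against at most 0.0043 in the other mice. All 8 measured choroid plexus markers had negative differences, and their means ranged widely in both groups, from -1.35 to 0.97 in FTY720 and from -0.99 to 1.51 in vehicle. Markers of hippocampal pyramidal neurons, all 5 measured ones above the median level of all genes, averaged -0.19 in vehicle 15 and -0.24 in vehicle 16, against -0.059 to 0.17 elsewhere. Of 7 measured dentate granule cell markers, 3 lay above that median level, and of 9 general neuronal markers 8 did. The 5′ minus 3′ difference of the Gapdh control probe sets, a sign of RNA integrity, was -1.46 in vehicle 16 and -1.18 to -0.80 in the others. Its mean was -1.20 ± 0.18 in vehicle and -0.95 ± 0.14 in FTY720 (SD, n = 4 each). It thus differed along with the treatment, and a fit with this covariate cannot fully separate the 2 effects. The parts of tissue composition and RNA integrity in the differences below were not tested, except where a value with mice left out or with such a covariate is given. In hippocampal RNA, fewer cells of a type and less of the transcript per cell cannot be told apart.

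No cadherin or protocadherin passed the threshold of an adjusted p of 0.05, and neither did any other gene (0% of 12393). The lowest adjusted p was 0.536 over all genes and 0.719 over the members, by limma with Benjamini-Hochberg adjustment. At an unadjusted limma p under 0.05 stood 1 of the 47 members, Pcdhb14, against 6.64% of all genes. Pcdhb14 was also the 1 member whose groups of 4 did not overlap, against 4.49% of all genes. The median difference, FTY720 minus vehicle on the log2 scale, was 0.034 over the members and 0.0072 over all genes. Of the members, 29 lay above 0 and 18 below it, and the differences ran from -0.20 for Pcdh18 to 0.28 for Cdh1.

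The data bound most differences in the measured signal of this gene family to moderate sizes. The standard errors ran from 0.05 for Pcdhb21 to 0.16 for Cdh4. The 95% interval of the difference lay within a 1.5-fold change in either direction, which is 0.58 on the log2 scale, for 46 of the 47 members (97.9%, against 97.5% of all genes). The exception was Cdh1. The median standard deviation within groups was 0.14 for the members and 0.10 for all genes. With 1 array per mouse, variation between mice and noise of the arrays cannot be told apart in it, and the comparison was not matched for level. Of the 47, 34 had a mean level below the median of all genes, 7.17, and 13 above it. Whether the dim members were detected was not tested, so their intervals bound the probe set signal and not the transcript. Among the 13 brighter members, 8 were higher and 5 lower in FTY720, and 0 of them stood at an unadjusted limma p under 0.05. In a fit of the genes above the median level alone the count was also 0, against 8.55% of those genes. With 13 members, a count of 0 cannot be told apart from that share.

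**Figure D1:**
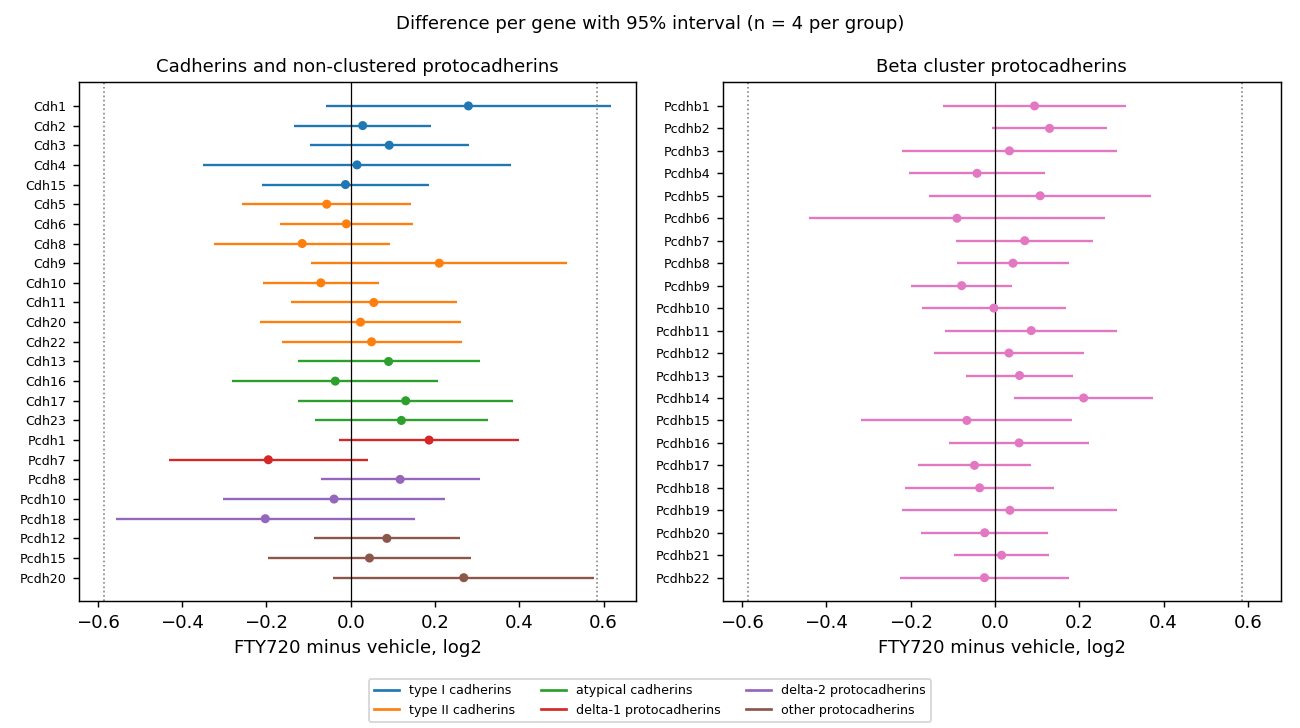
Difference between FTY720 and vehicle (horizontal axis, log2, with the 95% interval) for each of the 47 members by group (vertical axis), 4 mice a group, with dotted lines at a 1.5-fold change. The intervals cross 0 for every member but Pcdhb14, and Cdh1 has the highest difference, 0.28.

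Of the classical type I cadherins, all 5 were measured, 4 with a positive and 1 with a negative difference, from -0.012 to 0.28 with a median of 0.028. Cdh2 (N-cadherin), the main cadherin of neuronal synapses and of neural progenitors, stood at 10.55, 10.49, 10.60 and 10.63 in FTY720 mice 1, 4, 5 and 6 and at 10.62, 10.42, 10.69 and 10.43 in vehicle mice 13, 14, 15 and 16. The groups overlapped fully, and the highest and lowest mice were both vehicle. The difference was 0.028 (SE 0.07), with a 95% interval of -0.13 to 0.19 and a limma adjusted p of 0.964.

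Cdh1 (E-cadherin), the cadherin of epithelia, was a dim gene here. It read 4.32, 4.38, 4.61 and 4.73 in FTY720 mice 1, 4, 5 and 6 against 4.31, 4.34, 3.78 and 4.49 in vehicle mice 13 to 16. Vehicle 15 lay below the rest, and the remaining vehicle mice overlapped with FTY720 mice. The group means were 4.51 ± 0.19 and 4.23 ± 0.31 (SD, n = 4 each), a difference of 0.28 (SE 0.15) or 1.21-fold, with an interval of -0.06 to 0.62 and a limma adjusted p of 0.787. Without vehicle 15 it was 0.13, and with the thalamus marker mean, highest in vehicle 15, as a covariate it was -0.014. In the other direction, it was 0.37 without vehicle 16 and 0.44 with the Gapdh covariate.

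The other type I cadherins lay near 0. Cdh3 (P-cadherin) differed by 0.09 (SE 0.08). Cdh4 (R-cadherin), which marks particular axon tracts and brain regions in development, differed by 0.015 with the widest standard error of the family, 0.16. Its spread came from FTY720 1 at 7.02 and FTY720 4 at 6.11, between which all 4 vehicle mice lay. Without FTY720 1 the difference was -0.15. Cdh15 (M-cadherin), the cadherin of skeletal muscle and cerebellar granule cells, was the member below 0.

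Type II cadherins are expressed in matching sets by connected neurons, and bind a limited choice of other type II members. Of 13 listed, 8 were measured, 4 higher and 4 lower in FTY720, with a median difference of 0.0065 and a range from -0.12 to 0.21. Cdh9, which is concentrated in dentate granule cells and CA3 neurons and takes part in the synapses of mossy fibres, was the member with the highest difference. It stood at 9.46, 9.42, 9.56 and 9.50 in FTY720 mice 1, 4, 5 and 6, and at 9.66, 9.35, 9.22 and 8.88 in vehicle mice 13 to 16. The FTY720 mice were close together, with an SD of 0.06 against 0.32 in vehicle, and lay inside the vehicle range. The difference was 0.21 (SE 0.14; interval -0.09 to 0.51) with a limma adjusted p of 0.812. It was 0.34 without vehicle 13, 0.08 without vehicle 16, -0.015 without vehicle 15 and 16, and 0.0054 with the Gapdh covariate. Those 2 vehicle mice, 15 and 16, also had the lowest pyramidal marker means, and dentate granule markers averaged -0.43 in vehicle 15 and -0.15 in vehicle 16. In FTY720 6, where Cdh9 stood at 9.50, the dentate granule markers averaged -0.35.

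The 250 bases upstream of the annotated start of Cdh9, the type II cadherin of highest difference, are shown from RefSeq (GRCm38.p6, chr15:16728665-16728914, + strand). They hold neither TATAAA (the TATA box) nor TGACG (the core of the cyclic AMP response element), searched on both strands, with a GC content of 48% and 6 CpG dinucleotides.
Cdh9: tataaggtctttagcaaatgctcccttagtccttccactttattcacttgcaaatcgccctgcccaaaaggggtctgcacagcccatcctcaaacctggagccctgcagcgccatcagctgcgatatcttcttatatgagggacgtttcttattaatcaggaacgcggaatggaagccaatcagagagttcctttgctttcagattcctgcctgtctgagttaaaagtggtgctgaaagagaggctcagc

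Cdh8, a cadherin of corticostriatal and hippocampal excitatory synapses, was the lowest of the type II members. Its values were 8.57, 8.85, 8.82 and 8.63 in FTY720 mice 1, 4, 5 and 6 and 9.03, 8.76, 8.89 and 8.66 in vehicle mice 13 to 16. The groups overlapped, with vehicle 13 the highest mouse and FTY720 1 the lowest. The difference was -0.12 (SE 0.09; interval -0.32 to 0.09; limma adjusted p 0.860). It was -0.049 without vehicle 13, -0.066 without FTY720 1, -0.055 with the thalamus covariate and -0.27 with the Gapdh covariate, the last at an unadjusted limma p under 0.05.

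Cdh10, a close relative of Cdh9 and a binding partner of it, read 8.95, 8.997, 8.92 and 8.84 in FTY720 against 9.11, 8.92, 8.91 and 9.05 in vehicle, in the same order of mice. The mice lay within 0.3 of each other, and FTY720 4 lay above 2 of the vehicle mice. The difference was -0.07 (SE 0.06; interval -0.21 to 0.07). For Cdh11, which is found in mesenchyme and at excitatory synapses, FTY720 mice stood at 9.06, 9.39, 9.37 and 9.46 and vehicle mice at 9.31, 9.15, 9.27 and 9.35. FTY720 1 was the lowest of the 8 mice and FTY720 6 the highest. The difference was 0.05 (SE 0.09; interval -0.14 to 0.25), and it was 0.14 without FTY720 1 and 0.0074 without FTY720 6.

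Cdh5 (VE-cadherin) belongs to the type II class by sequence and forms the junctions of endothelial cells. It stood at 6.36, 6.23, 6.29 and 6.14 in FTY720 and at 6.27, 6.56, 6.13 and 6.29 in vehicle. Only vehicle 14 lay above all FTY720 mice, and in that mouse the mean of 9 endothelial markers was also the highest, 0.14. The difference was -0.06 (SE 0.09; interval -0.26 to 0.14; limma adjusted p 0.927). Cdh22, a cadherin of forebrain neurons and pituitary, differed by 0.05 (SE 0.10). The remaining members of this class, Cdh6 and Cdh20, lay within the range given above.

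Of 5 atypical cadherins listed, 4 were measured, 3 higher and 1 lower, with differences from -0.037 to 0.13. Cdh13 (T-cadherin) is held in the membrane by a lipid anchor, has no cytoplasmic tail and is a receptor for adiponectin. It read 8.25, 7.79, 8.06 and 7.90 in FTY720 mice 1, 4, 5 and 6 and 7.99, 7.92, 7.95 and 7.79 in vehicle mice 13 to 16. FTY720 1 and FTY720 5 lay above all vehicle mice, and FTY720 4 and vehicle 16 were the lowest. The difference was 0.09 (SE 0.10; interval -0.13 to 0.31), 0.0051 without FTY720 1, 0.16 without FTY720 4 and 0.05 without vehicle 16. Cdh23, which forms the tip links of inner ear hair cells together with Pcdh15, differed by 0.12 (SE 0.09). Cdh16 and Cdh17, the cadherins of kidney and intestine, had mean levels of 5.42 and 3.77, below the median level of all genes.

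**Figure D2:**
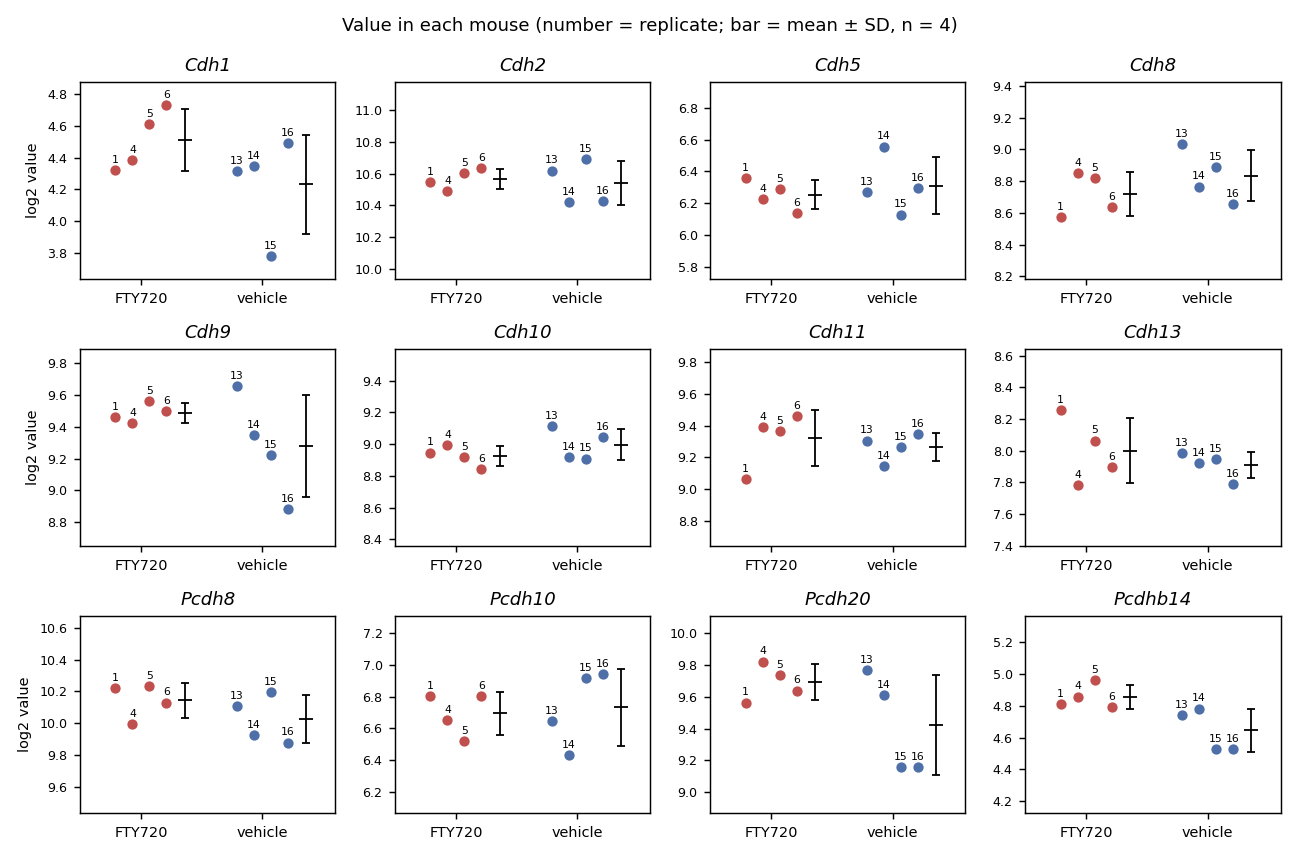
log2 value in each mouse (vertical axis) for the 12 members whose values are given mouse by mouse, FTY720 and vehicle side by side, with a bar at the mean ± SD of each group. The groups overlap for 11 of the 12, the exception being Pcdhb14.

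The 8 non-clustered protocadherins had 5 positive and 3 negative differences, with a median of 0.07. The delta-1 protocadherins, of which 2 of 4 listed were measured, lay on opposite sides of 0. Pcdh1 differed by 0.19 (SE 0.10) and Pcdh7 by -0.20 (SE 0.11). The delta-2 members, with 3 of 5 measured, included 1 above and 2 below 0.

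Pcdh8 (arcadlin) is a transcript that neuronal activity induces, and its protein draws Cdh2 away from excitatory synapses. It stood at 10.22, 9.99, 10.23 and 10.13 in FTY720 mice 1, 4, 5 and 6 and at 10.11, 9.92, 10.20 and 9.88 in vehicle mice 13 to 16. FTY720 1 and FTY720 5 were the highest, vehicle 14 and vehicle 16 the lowest, and the other mice lay between them. The difference was 0.12 (SE 0.08; interval -0.07 to 0.31; limma adjusted p 0.837). It was 0.068 without vehicle 16 and 0.22 with the thalamus covariate, the latter at an unadjusted limma p under 0.05. Its level lay above the median of all genes in every mouse of both groups. No untrained mice were among the samples, so its level before training is not given by these data.

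Pcdh10, which acts in the elimination of excitatory synapses, was read by probe sets that did not give the same difference. The brighter stood at 6.80, 6.65, 6.52 and 6.80 in FTY720 and at 6.65, 6.43, 6.92 and 6.94 in vehicle. FTY720 mice lay between the low vehicle 14 and the high vehicle 15 and vehicle 16. The difference was -0.04 (SE 0.12; interval -0.30 to 0.22), and it was 0.16 without vehicle 15 and 16. The other probe set, with a mean level of 6.58 against 6.71, read 6.36, 6.54, 6.58 and 6.30 in FTY720 and 6.59, 6.58, 6.92 and 6.81 in vehicle. In that one the FTY720 mice lay at or below the vehicle mice, with a difference of -0.28 (SE 0.09) and a limma adjusted p of 0.694 over all single-gene probe sets.

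Pcdh18 had the lowest difference of the family, -0.20 (SE 0.16). Vehicle 15 stood at 5.96, above the other 7 mice at 5.07 to 5.42. The difference was -0.036 without vehicle 15, 0.029 without vehicle 15 and 16, and 0.031 with the thalamus marker mean as a covariate. In the other direction, it was -0.32 without vehicle 14 and -0.31 with the Gapdh covariate.

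Pcdh20 had the highest difference of the protocadherins. Its values were 9.56, 9.82, 9.74 and 9.64 in FTY720 mice 1, 4, 5 and 6 and 9.77, 9.61, 9.16 and 9.15 in vehicle mice 13 to 16. Vehicle 15 and vehicle 16 lay apart from the rest, and vehicle 13 and vehicle 14 lay among the FTY720 mice. The difference was 0.27 (SE 0.14) or 1.20-fold, with an interval of -0.04 to 0.58 and a limma adjusted p of 0.773. It was 0.18 without either of vehicle 15 and vehicle 16, 0.38 without vehicle 13, 0.099 with the Gapdh covariate, and 0.002 without vehicle 15 and 16 together. Vehicle 15 and vehicle 16 also stood lowest for the pyramidal markers. Pcdh12, an endothelial protocadherin, and Pcdh15, the tip link partner of Cdh23, were both above 0 by less than 0.1.

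Upstream sequences are shown for Pcdh8, Pcdh10 and Pcdh20, delta-2 members with known roles at synapses and the protocadherin of highest difference. They are the 250 bases before each start in RefSeq (GRCm38.p6), at chr14:79771313-79771562 (- strand), chr3:45378148-45378397 (+ strand) and chr14:88471397-88471646 (- strand). Capitals mark TATAAA and TGACG, which were searched on both strands and did not overlap each other.
Pcdh8: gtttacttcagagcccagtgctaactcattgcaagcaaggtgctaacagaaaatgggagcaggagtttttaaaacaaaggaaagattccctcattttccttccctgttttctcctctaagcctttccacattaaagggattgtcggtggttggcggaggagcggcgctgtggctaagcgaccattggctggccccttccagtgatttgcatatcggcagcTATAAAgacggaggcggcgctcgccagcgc
Pcdh10: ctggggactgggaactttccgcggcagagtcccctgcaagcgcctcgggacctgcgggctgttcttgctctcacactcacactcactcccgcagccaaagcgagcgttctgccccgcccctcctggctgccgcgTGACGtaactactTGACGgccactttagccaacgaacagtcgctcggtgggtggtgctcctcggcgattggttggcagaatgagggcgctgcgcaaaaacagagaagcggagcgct
Pcdh20: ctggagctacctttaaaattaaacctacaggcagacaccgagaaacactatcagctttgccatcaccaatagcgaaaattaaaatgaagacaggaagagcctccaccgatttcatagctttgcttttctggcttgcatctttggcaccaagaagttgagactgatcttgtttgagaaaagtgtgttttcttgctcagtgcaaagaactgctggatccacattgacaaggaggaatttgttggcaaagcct

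The Pcdh8 window holds TATAAA beginning 30 bases before the start. The Pcdh10 window holds TGACG at 116 and 103 bases before the start, and the Pcdh20 window holds neither. The GC content was 51.2%, 63.2% and 42.4%, with 11, 22 and 3 CpG dinucleotides, against medians of 52.4% and 6 over all 32851 promoter windows of the table. Of all these windows 12.4% held TATAAA and 17.8% held TGACG. Member windows on a single chromosome were left out before counting, and the shares over all windows were taken without that exclusion. Of the 47 members 14 remained, and among them 2 held each of these motifs. A match of letters is a description of the window, not a site of binding.

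The protocadherin beta cluster was covered in full, with 22 of 22 genes measured. Each of these genes is a single exon with a promoter of its own, and neurons use them in varied combinations. In FTY720 13 were higher and 9 lower, with a median difference of 0.034 and a range from -0.09 to 0.21. Only Pcdhb7, Pcdhb9, Pcdhb17 and Pcdhb20 were brighter on average than the median gene.

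Pcdhb14 read 4.81, 4.86, 4.96 and 4.79 in FTY720 mice 1, 4, 5 and 6 and 4.74, 4.78, 4.53 and 4.53 in vehicle mice 13 to 16. All FTY720 mice lay above all vehicle mice, with FTY720 6 and vehicle 14 the nearest to each other. The difference was 0.21 (SE 0.07) or 1.16-fold, with an interval of 0.045 to 0.38, a limma p of 0.0178 and an adjusted p of 0.719. It was 0.093 without vehicle 15 and 16. The gene was no longer at an unadjusted limma p under 0.05 with the Gapdh covariate, with the thalamus covariate, without FTY720 5 or without vehicle 16, where it differed by 0.17 to 0.19 in the same direction. This was the 1 member read by a probe set of the kind that Affymetrix names as prone to bind related transcripts. Its other probe set, with a mean level of 2.8, differed by -0.012. Pcdhb2 differed by 0.13 (SE 0.06) and Pcdhb9, among the bright members of the cluster, by -0.08 (SE 0.05).

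The mice also differed among themselves within a group across this family. FTY720 6 was the highest of the 8 mice for 18 members (38.3%) and for 14.6% of all genes, an ordering that was looked at after the values were seen. Its median deviation from the mean of each gene was 0.08 over the members and 0.0053 over all genes. In the same mouse the oligodendrocyte markers averaged -0.32, the choroid plexus markers -1.35, the thalamus markers -0.39 and the endothelial markers -0.15, each the lowest of the 8. The dentate granule markers averaged -0.35, and the part of these markers was not tested. Vehicle 15, in which 40.7% of all genes had their highest or lowest value, held that place for 21.3% of the members.

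**Figure D3:**
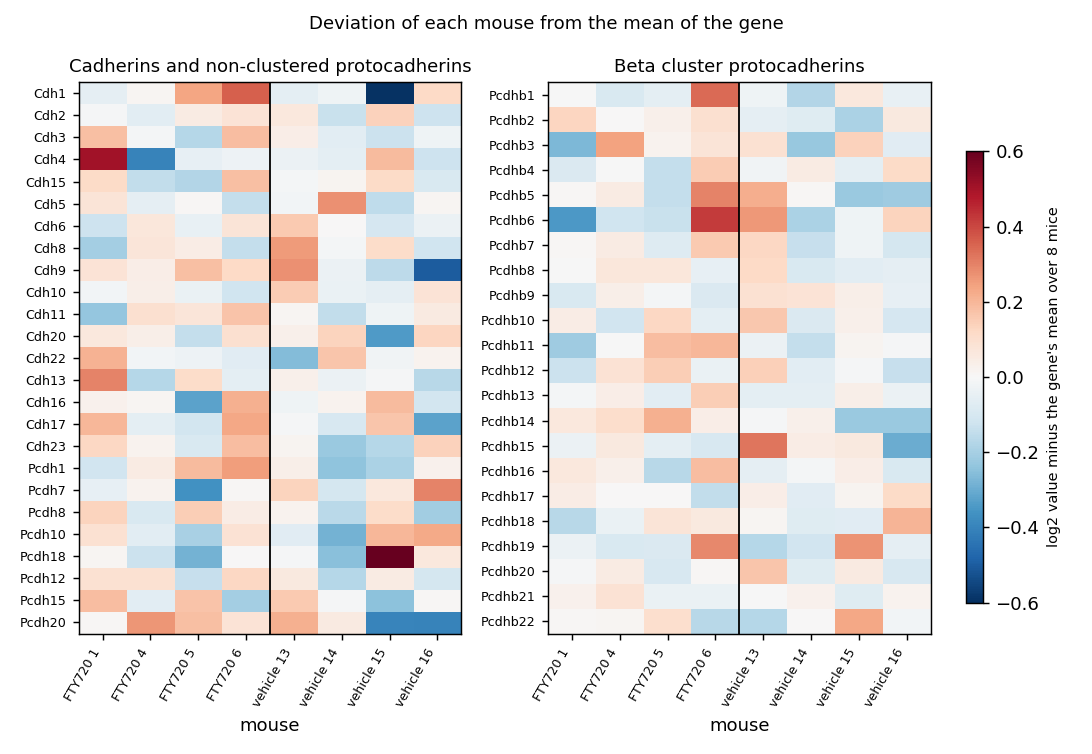
Deviation of each mouse (columns) from the mean of each gene over 8 mice (rows, the 47 members), in log2 units by colour, with a line between the FTY720 and vehicle mice. FTY720 6 is the highest mouse for 18 members, and vehicle 15 stands out for Cdh1 and Pcdh18.

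For 10 members more than 1 probe set was annotated to the gene alone, and in 6 of them the probe sets differed in sign. Of 59 member probe sets, 3 stood at an unadjusted limma p under 0.05, against 6.75% of the 20380 single-gene probe sets. They were those of Pcdhb14 and Pcdh10 already given and the dimmer probe set of Cdh2. The last differed by 0.19 (SE 0.08), with a limma adjusted p of 0.731, where the brighter Cdh2 probe set differed by 0.028. For Pcdh20 the dimmer probe set differed by 0.11, on the same side as the brighter. The probe sets of Pcdh18 differed by -0.20, -0.05 and 0.18, and those of Pcdh7 by -0.20 and 0.13.

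**Figure D4:**
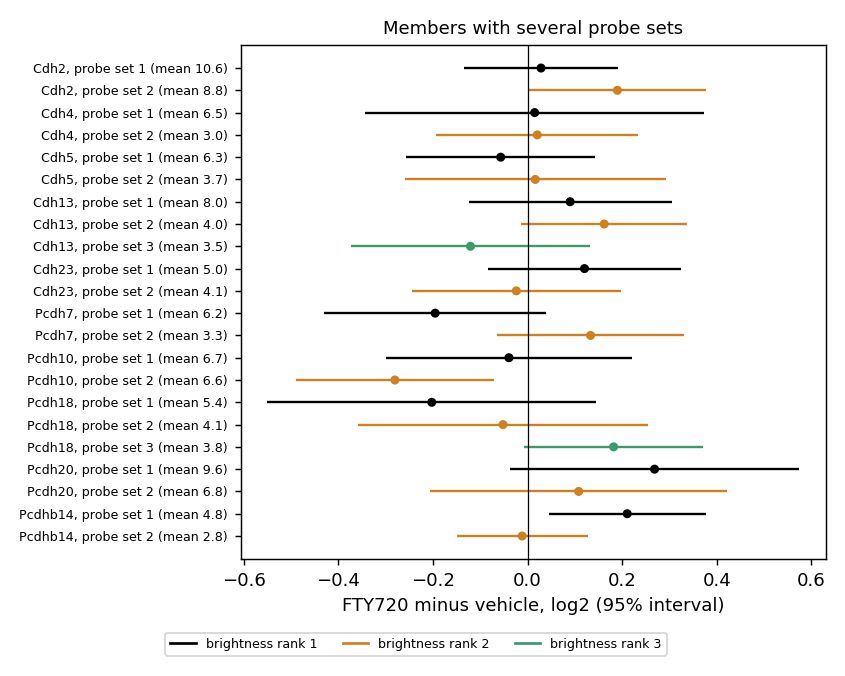
Difference between FTY720 and vehicle (horizontal axis, log2, with the 95% interval) for every probe set of the 10 members that have more than 1, coloured by brightness rank, with the mean log2 level in brackets. The probe sets of Pcdh7, Pcdh18 and Pcdhb14 lie on both sides of 0, and the dimmer Pcdh10 probe set lies at -0.28.

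More of the genes listed for the partners and junctions of the classical cadherins had negative than positive differences. Of 22 genes listed for catenins, the link to actin and the junction, nectins included, 18 were measured. Of these, 4 were higher and 14 lower, where 5761 of all 12393 genes were lower. The median difference was -0.04 against 0.0072 over all genes. Several of the 14 lay near 0, such as Arvcf at -0.0004 and Iqgap1 at -0.004. At an unadjusted limma p under 0.05 were 3, all lower, where 2.78% of all genes were lower at that threshold. None passed adjustment. For the runs that follow, brackets give the share of all genes at that threshold in either direction. The share in the lower direction alone was not counted there. The count was 0 with the Gapdh (4.08%) or the thalamus covariate (8.55%), where the differences of all 3 stayed negative. It was 1 without vehicle 15 (7.18%), without FTY720 1 (5.4%) or without FTY720 4 (5.67%). Without vehicle 15 and 16 the count was 2 (5.7%), Jup and Ctnnbip1, so Ctnna1 and Ctnna2 were not among them. Ctnna1 and Jup were read by probe sets of the kind prone to bind related transcripts. Without such probe sets the count was 1, Ctnna2 (6.55%), and with array weights it was 1, Jup (6.96%). It reached 4 in other runs, such as quantile normalization (6.94%), where Ctnnal1 was added. Beta-catenin itself, Ctnnb1, differed by 0.019 (SE 0.06).

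Ctnna1 (alpha-E-catenin), which ties the cadherin complex to actin, stood at 9.74, 9.50, 9.65 and 9.41 in FTY720 mice 1, 4, 5 and 6 and at 9.65, 9.86, 10.03 and 9.87 in vehicle mice 13 to 16. All vehicle mice but vehicle 13 lay above all FTY720 mice. The difference was -0.28 (SE 0.09; limma adjusted p 0.719), and the other probe sets of the gene gave -0.16 and 0.05. It was -0.18 without vehicle 15 and 16 and -0.18 with the thalamus or the Gapdh covariate.

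Ctnna2 (alpha-N-catenin), the neuronal form that stabilises dendritic spines, read 8.68, 8.81, 8.77 and 8.82 in FTY720 and 8.87, 8.79, 9.28 and 9.08 in vehicle. Vehicle 15 and vehicle 16 were the high mice, and vehicle 14 lay among the FTY720 mice. The difference was -0.24 (SE 0.10; limma adjusted p 0.736), -0.15 without vehicle 15 and -0.06 without vehicle 15 and 16. It was -0.14 with the thalamus covariate, -0.27 with the Gapdh covariate and -0.31 without vehicle 14. Jup (plakoglobin), the relative of beta-catenin, read 6.34, 6.20, 6.40 and 6.38 in FTY720 and 6.54, 6.47, 6.59 and 6.38 in vehicle. Vehicle 16 alone lay within the FTY720 range. The difference was -0.17 (SE 0.07, limma adjusted p 0.726). It was -0.10 with the thalamus covariate, -0.20 with the Gapdh covariate and -0.18 without vehicle 15 and 16. Several marker lists also had negative differences, with medians of -0.33 for oligodendrocyte (9 of 9 lower), -0.54 for choroid plexus (8 of 8) and -0.50 for thalamus (9 of 10). The medians were -0.41 for striatum (7 of 7) and -0.20 for neocortex (8 of 9). Apart from the thalamus covariate, their part in these values was not tested.

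**Figure D5:**
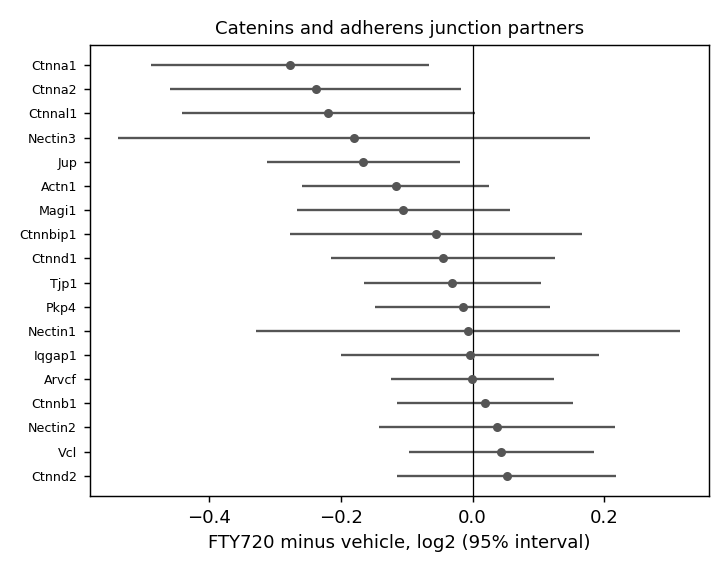
Difference between FTY720 and vehicle (horizontal axis, log2, with the 95% interval) for the 18 measured catenins and junction partners, ordered by difference. The intervals of Ctnna1, Ctnna2 and Jup lie below 0, and 14 of the 18 points are negative.

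Of 11 genes listed for the proteases that cut cadherins, 10 were measured, 5 higher and 5 lower. Mmp9, a secreted metalloprotease that acts on the extracellular matrix of synapses, was the 1 at an unadjusted limma p under 0.05. Over all genes 6.64% stood at that threshold. Mmp9 differed by -0.20 (SE 0.07; limma adjusted p 0.719), and its other probe set by -0.09. Of 18 listed partners and regulators of protocadherins, such as the WAVE complex and CTCF, 13 were measured, 8 higher and 5 lower, with 0 at that threshold. Of 25 genes of the wider cadherin superfamily 14 were measured, 7 on each side of 0. Among them Ret, a receptor tyrosine kinase with cadherin-like domains, stood at 5.27 to 5.28 in FTY720 and at 5.33 to 5.50 in vehicle. The groups of Ret did not overlap, which held for 1 of the 14 and for 4.49% of all genes. The difference was -0.13 (SE 0.05; limma adjusted p 0.726).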

How the data were processed

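Labelled RNA of single hippocampi was hybridised to Affymetrix 3′ arrays, 1 per mouse. The deposited values are log2 summaries per probe set that the authors made; the scale was read from the values. Per the submitters' processing notes the software was Affymetrix Expression Console with MAS5 and RMA, no versions listed; the method behind these values and the scan dates are not given in the sources used. Of 22690 probe sets 20380 were annotated to 1 symbol, 691 to several and 1619 to none. The brightest probe set represented each gene. limma 3.58.1 in R 4.3.3 (lmFit, eBayes, no covariate, no filter on dim genes) was fitted over all 12393 genes and 8 arrays, with Benjamini-Hochberg adjustment, and was tested on simulated data.

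Values by mouse were printed for members at an unadjusted p under 0.05 or without overlap, the 3 of largest absolute difference, and a list of cadherins and protocadherins of brain; partner genes were named at an unadjusted p under 0.05. The members and lists were chosen with earlier results of these data known. Other normalizations, probe set choices, covariates and sets of mice were tried. Array medians were 6.68 to 6.72, and pairs of arrays correlated at 0.993 to 0.998.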

Additional observations from a re-analysis of the deposited data

Results flagged for a closer look

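Within each group of 4, a mouse was looked for whose gap to the nearest other exceeded Dixon's 95% limit as a share of the range. This held in 2 of 94 member groups (2.13%), where chance gives about 1 in 20. Pcdhb19, a beta cluster gene, read 5.26 in FTY720 6 against 4.87 to 4.93 in the other FTY720 mice, and vehicle 15 also stood high at 5.24. Pcdh12, the endothelial protocadherin, read 4.30 in FTY720 5 against 4.53 to 4.56 in the other FTY720 mice, and vehicle 14 was lower still, at 4.27.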

How the results depend on the processing

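No gene passed an adjusted p of 0.05 under any alternative run. The median member difference, 0.034 as reported, ran from -0.0018 with the Gapdh covariate to 0.050 without vehicle 15. It moved by less than the spread between replicates, but a median this near 0 can change sign within that spread. The median member deviation by mouse ran from -0.039 to 0.080 in FTY720 and from -0.063 to 0.029 in vehicle. The count of members at an unadjusted limma p under 0.05 was 1 as reported. Below, the share of all genes in the same run is in brackets. The count was 0 among genes above the median level (8.55%) and without probe sets named as shared (6.55%). It was 3 with the Gapdh covariate (4.08%) and 2 with the thalamus covariate (8.55%). On leaving out single mice it was 1 to 3 (5.16% to 7.79%). It was 3 without FTY720 1 or vehicle 13, and 2 without vehicle 14 or vehicle 16. Pcdhb14 was not among those counted with either covariate, without FTY720 5, without vehicle 16 or without vehicle 15 and 16; they were Cdh8, Pcdhb2 and Pcdhb15 with Gapdh, Cdh17 and Pcdh8 with thalamus, Cdh3 without FTY720 5, Cdh1 and Pcdhb2 without vehicle 16, and Pcdhb15 without vehicle 15 and 16. The catenin count, 3 as reported, ran from 0 (4.08% and 8.55%) to 4 (6.47% to 7.79%), a tally added after seeing the data. The count without overlap, 1 as reported, was 0 after quantile normalization, among brighter genes and without shared probe sets. It was 4 without vehicle 15 and 16, and 1 to 3 on leaving out single mice. Smaller groups fail to overlap more often by chance alone, and the share of all genes without overlap was not counted in these runs. Counts with mice left out are therefore not comparable with the 1 reported. Several differences changed sign. Leaving out single mice gave -0.14 to 0.030 for Pcdh10, -0.15 to 0.15 for Cdh4, -0.030 to 0.11 for Cdh22, -0.012 to 0.079 for Cdh2 and -0.12 to 0.025 for Cdh5. Without vehicle 15 and 16, Cdh9 was -0.015, Pcdh10 0.16 and Pcdh18 0.029. With the Gapdh covariate, Cdh2 was -0.052, Cdh5 0.028, Cdh11 -0.0018 and Pcdh10 0.024. With the thalamus covariate, Cdh1 was -0.014 and Pcdh18 0.031. Array weights gave 0.017 for Pcdh10. Pcdhb14 was -0.012 without shared probe sets and, like Cdh23 at -0.024, Cdh5 at 0.016 and Pcdh7 at 0.13, changed sign with the next probe set in brightness, an alternative chosen after seeing the data. The cause was not tested. No paired analysis was possible because the groups share no replicate numbers. With 4 mice a group and most members below the median level, the intervals leave room for changes in signal of up to about 1.5-fold. Pcdh alpha and gamma genes were not analysed.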
